A study of Mus musculus with 6 samples.

Results

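Interferon-stimulated genes and the receptors, sensors and transcription factors that govern them were followed through 6 libraries of mouse uterus. The list held 51 gene symbols, chosen by name with earlier results of these data known. Of these, 50 had a row in the deposited tables of 20637 genes, and Mx2 was not analysed here. All 50 passed the filter on low values (an FPKM of at least 1 in at least 3 libraries). They comprised 4 receptors, 6 sensors or adaptors, 8 transcription factors, 2 feedback regulators and 30 effectors. The samples were whole uteri from female mice at postnatal day 21, 3 labelled Nat10 f/f (floxed, the controls) and 3 labelled Nat10 d/d (Nat10 deleted). Nat10 encodes an RNA cytidine acetyltransferase. The labels do not name the Cre driver, the deleted exons, the strain or the cells in which deletion took place. They do not say whether 1 library is 1 animal, so p-values measure the spread between these libraries only. Values are FPKM, read abundance divided by transcript length and by library size, so that they can be set side by side between genes.

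Type I interferons bind the receptor made by Ifnar1 and Ifnar2 and lead to a complex that holds STAT2 and IRF9 and binds the interferon-stimulated response element (ISRE) in the promoters of its targets. Interferon gamma acts through Ifngr1 and Ifngr2, and its targets are known for the gamma-activated site (GAS). Cells make type I interferon when cytosolic or endosomal sensors meet viral or misplaced nucleic acid. Many sensors and transcription factors of the pathway are themselves interferon-stimulated, so that the pathway feeds back on its own components. In the uterus, interferon-stimulated genes are known mainly from the endometrium in early pregnancy and from antiviral defence of the mucosa.

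Summed FPKM ran from 500764 to 549263 per library, and relative depth, estimated from the lowest values, differed by at most 1.26 times. Nat10 was lower in every deleted library (5.23 to 5.57) than in every control (9.95 to 16.4), although its adjusted p in limma was 0.669. Summed markers of uterine epithelium (376 to 491) and smooth muscle (2809 to 3593) overlapped between the groups. Summed stroma markers were lower in every deleted library (1838 to 1873) than in every control (2003 to 2160), but the groups overlapped for each of the 5 genes. Col1a1 (394, 984 and 361 in d/d, 677 to 765 in f/f) and Dcn (1160, 646 and 1197 in d/d, 1033 to 1115 in f/f), which made up most of the sum, went opposite ways in each deleted library. Endothelium markers were 147 to 177 in d/d and 176 to 204 in f/f. Of single endothelium and epithelium genes, Kdr (18.5 to 20.6 against 27.4 to 28.1) and Foxa2 (1.14 to 1.75 against 2.06 to 2.72) were lower in every deleted library. Epcam was higher in every deleted library (58.0 to 64.2 against 47.0 to 56.9). The groups did not overlap for 10.7% of all genes tested. The part of these cells in the values below was not tested. Among leukocyte lists, summed FPKM of macrophage markers was 161 to 245 in f/f and 172 to 230 in d/d. Dendritic cell markers summed to 8.98, 8.71 and 9.15 in f/f replicates 1, 2 and 3 and to 11.1, 8.14 and 10.6 in d/d replicates 1, 2 and 3. Of these, Flt3, Xcr1 and Clec9a were highest in d/d replicate 1, Itgax in d/d replicate 3 and Zbtb46 in f/f replicate 3. Markers of T cells (5.38 to 9.08), NK cells (3.02 to 8.90), B cells (0.677 to 3.06) and plasmacytoid dendritic cells (0.715 to 1.39) were low throughout.

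The interferon genes varied widely between libraries, and the order of the libraries crossed the genotypes. Summed over the 50 genes, FPKM was 889, 1346 and 2327 in Nat10 f/f replicates 1, 2 and 3, and 3792, 2096 and 1396 in Nat10 d/d replicates 1, 2 and 3. The highest library was thus a deleted one and the lowest a control, with the other deleted libraries between control replicates 2 and 3. As a share of all FPKM, the sum rose from 0.169% in f/f replicate 1 to 0.704% in d/d replicate 1. The same order appeared gene by gene in the median of log2(FPKM + 1) relative to the control mean. That median was -0.57, -0.04 and 0.65 in f/f replicates 1, 2 and 3 and 1.25, 0.45 and -0.01 in d/d replicates 1, 2 and 3. Over all 12640 genes tested it stayed between -0.01 and 0.03 in every library. In bulk tissue, fewer cells of a type and less RNA per cell cannot be told apart.

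Some neighbours in this order were close. D/d replicate 1 was above f/f replicate 3 for 44 of 50 genes, with a median difference of 0.63 on the log2 scale. F/f replicate 3 was above d/d replicate 2 for 40 of 50 (median difference 0.22), and d/d replicate 2 above d/d replicate 3 for 36 of 50 (0.46). D/d replicate 3 and f/f replicate 2 could hardly be ordered, with d/d replicate 3 higher for 28 of 50 and a median difference of 0.05. F/f replicate 2 was above f/f replicate 1 for 42 of 50 genes (0.49).

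**Figure D1:**
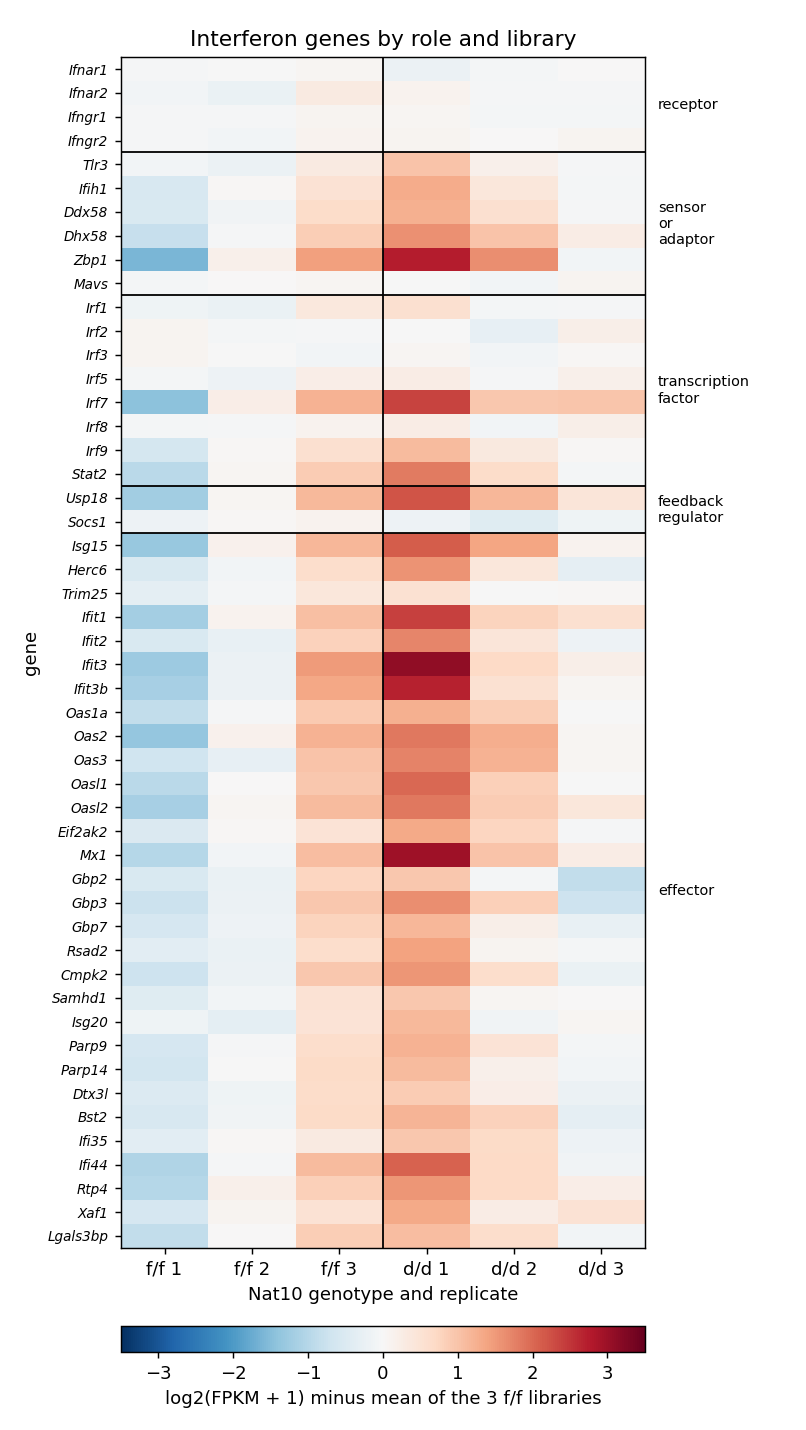
Heat map of the 50 interferon genes (rows, grouped by role) in 6 libraries (columns); colour is log2(FPKM + 1) minus the mean of the 3 Nat10 f/f libraries. D/d replicate 1 and f/f replicate 3 are red and f/f replicate 1 is blue for most sensors and effectors, while the receptors, Mavs, Irf2 and Irf3 stay near white.

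Between genotypes, no interferon gene passed an adjusted p of 0.05 in limma (0 of 50; background over all genes tested 0.0%), with adjusted p of 0.922 or more. The count at an unadjusted p under 0.05 was also 0 of 50, against 4.98% of all genes tested. In none of the 50 did the 3 deleted libraries lie wholly above or below the 3 controls, where 10.7% of all genes tested did so. After median centring or upper-quartile scaling, Socs1 alone separated, lower in the deleted libraries. On average 46 of 50 genes were higher in deleted uteri, against 56.6% of all genes tested. The median log2 change was 0.55, against 0.03 for all genes tested. Under quantile normalization, median centring or upper-quartile scaling, 42 of 50 were higher. For every one of the 50 genes the log2 change was smaller than the range among the 3 controls. The same share was not counted over all genes tested, so this does not set the interferon genes apart.

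The size of the median change turned on single libraries and on their weights. It was 0.19 without d/d replicate 1 (39 of 50 genes higher) and 0.28 without f/f replicate 1 (44 of 50 higher). It was 0.88 without f/f replicate 3 and 0.85 without d/d replicate 3. With array quality weights, which gave d/d replicate 1 a weight of 3.74, it was 1.19, and the changes of Irf7, Zbp1, Mx1 and Ifit3 were 2.39, 2.67, 2.75 and 2.89. In these 5 fits no interferon gene was called. The count at an unadjusted limma p under 0.05 was 16 of 50 without f/f replicate 3, against 2.79% of all genes tested. It was 12 without d/d replicate 3 (against 11.1%), 40 with the weights (against 29.5%) and 0 without f/f replicate 1 or d/d replicate 1. With 3 libraries a group, the smallest two-sided p that an exact permutation test allows is 0.1.

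**Figure D2:**
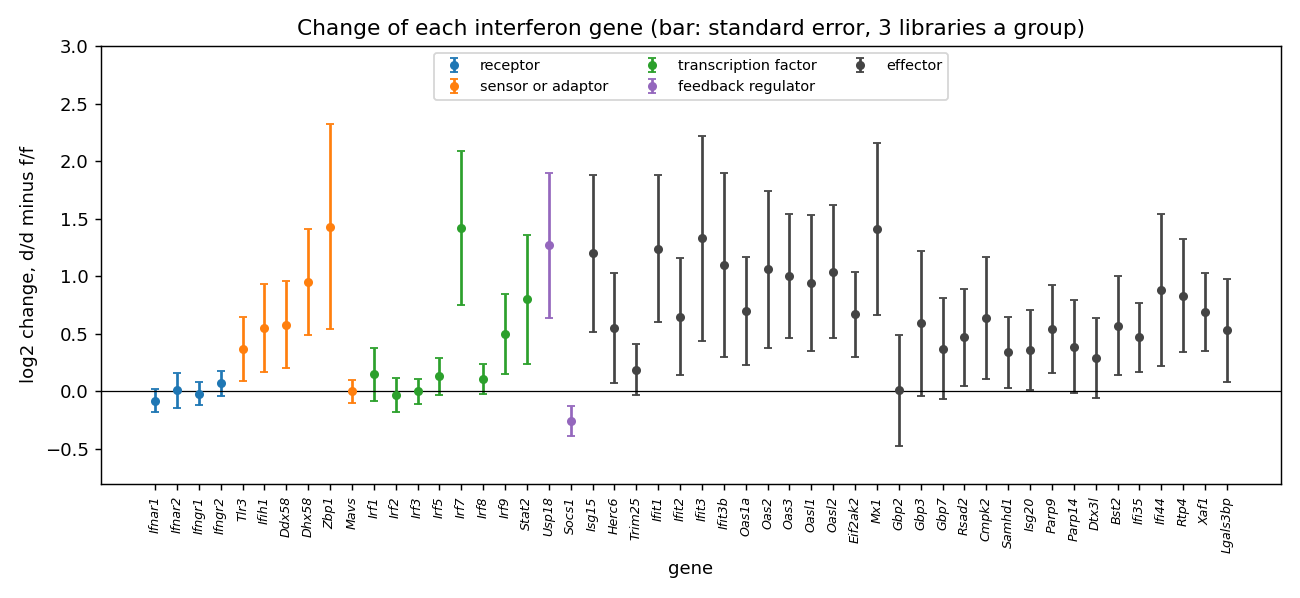
Log2 change of each of the 50 interferon genes, Nat10 d/d minus Nat10 f/f, on the log2(FPKM + 1) scale; bars are standard errors from limma with 3 libraries in each group, and colours mark the role. Changes run from -0.26 (Socs1) to 1.43 (Zbp1), and those of the receptors lie between -0.08 and 0.07.

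Much of the variation lay within genotypes. F/f replicate 3 was at least 2 times f/f replicate 1 for 34 of 50 genes, against 1.49% of all genes tested. D/d replicate 1 was at least 2 times d/d replicate 3 for 36 of 50, against 2.25% of all genes tested. These pairs were picked after the order of libraries was seen, so the counts are a description. In 34 of 50 genes the controls ran from replicate 1 up to replicate 3 and the deleted libraries from replicate 3 up to replicate 1, an order found in 2.04% of all genes tested. D/d replicate 1 was the highest and f/f replicate 1 the lowest of all 6 libraries for 36 of 50, against 4.11% of all genes tested. The 2 within-genotype differences share no library. Across the 50 genes, which are not independent replicates, they had a Pearson correlation of 0.87. Across all 12640 genes tested it was 0.13. Both correlations are descriptions, since the pairs were picked after the order was seen. Interferon genes that differed most between these 2 controls thus tended to differ most between these 2 deleted libraries.

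**Figure D3:**
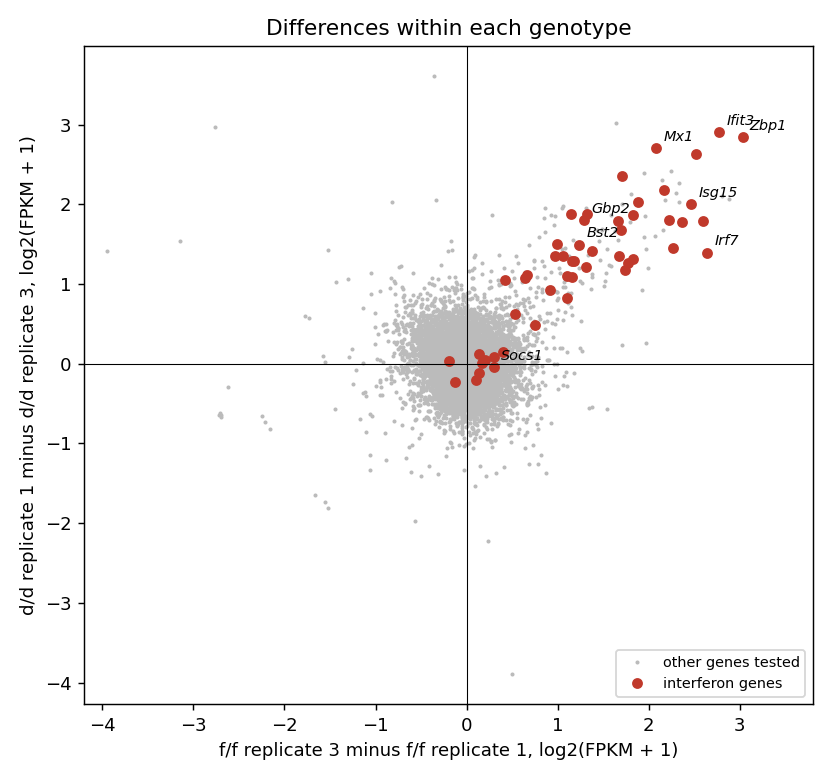
Each point is a gene; the x axis is f/f replicate 3 minus f/f replicate 1 and the y axis d/d replicate 1 minus d/d replicate 3, both in log2(FPKM + 1). Interferon genes (red) lie along the upper right diagonal, with a median of 1.21 on the x axis and 1.33 on the y axis, and a cluster at the origin holds the receptors, Mavs and Socs1 among other genes tested (grey).

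The receptors varied little over the 6 libraries. Ifnar2 spread by 1.47 times, close to the 1.48 times of the median gene tested, and the others by 1.12 to 1.2 times. Ifnar1 (ENSMUSG00000022967), a chain of the type I interferon receptor, stood at 26.5, 27.0 and 28.6 FPKM in f/f replicates 1, 2 and 3 and at 23.8, 26.2 and 27.7 in d/d replicates 1, 2 and 3. Its lowest value was in the library where the interferon-stimulated genes were highest. Ifnar2, its partner chain, ranged from 29.4 to 43.1. Ifngr1 (ENSMUSG00000020009), the ligand-binding chain of the interferon gamma receptor and the most abundant of the 4 in controls, was 36.7, 37.1 and 40.6 in controls and 39.7, 36.2 and 36.5 in deleted uteri. Ifngr2 (ENSMUSG00000022965), the signalling partner, was 19.6, 19.0 and 22.2 in controls and 21.8, 20.4 and 21.6 in deleted uteri. The groups overlapped for all 4. The log2 changes were -0.08 (SE 0.10) for Ifnar1, 0.01 (SE 0.15) for Ifnar2, -0.02 (SE 0.10) for Ifngr1 and 0.07 (SE 0.11) for Ifngr2, and the smallest adjusted p of the 4 in limma was 0.954.

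Among the sensors and their adaptor, 5 of 6 genes were highest in d/d replicate 1. Mavs (ENSMUSG00000037523), the mitochondrial adaptor on which the RIG-I-like receptors converge, was 24.3, 26.0 and 26.8 FPKM in controls and 25.4, 24.2 and 27.6 in deleted uteri, a log2 change of 0.00 (SE 0.10; limma adjusted p 1). Ddx58 (ENSMUSG00000040296), which encodes RIG-I, was 13.3, 17.9 and 30.9 in controls and 47.6, 29.1 and 19.0 in deleted uteri. The difference was 0.58 (log2, SE 0.38; limma adjusted p 0.924), and the deleted replicates 2 and 3 lay within the control range. Dhx58 (ENSMUSG00000017830), which encodes LGP2, was 3.48, 6.67 and 13.3 in controls and 23.0, 14.7 and 8.40 in deleted uteri (log2 change 0.95, SE 0.46; limma adjusted p 0.922). Here only d/d replicate 3 lay within the control range. With 1 library left out, the change of Ddx58 ran from 0.25 (without d/d replicate 1) to 0.90 (without d/d replicate 3 or f/f replicate 3), and that of Dhx58 from 0.54 (without f/f replicate 1) to 1.38 (without f/f replicate 3). Zbp1 (ENSMUSG00000027514), a sensor of Z-form nucleic acid, spread the most of the sensors.

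Zbp1 was 1.33, 7.03 and 18.0 FPKM in controls and 46.5, 21 and 5.62 in deleted uteri. The highest library was 35.1 times the lowest, and f/f replicate 3 was 13.6 times f/f replicate 1. D/d replicate 3 lay below f/f replicate 2. The log2 change of Zbp1 was 1.43, with a standard error of 0.89 and a limma adjusted p of 0.922. It was 0.63 without f/f replicate 1, 0.77 without d/d replicate 1, 2.14 without f/f replicate 3 and 2.19 without d/d replicate 3. Ifih1, which encodes MDA5, ranged from 6.56 to 26.2, and Tlr3, the endosomal receptor for duplex RNA, from 4.87 to 12.5. Both were highest in d/d replicate 1.

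**Figure D4:**
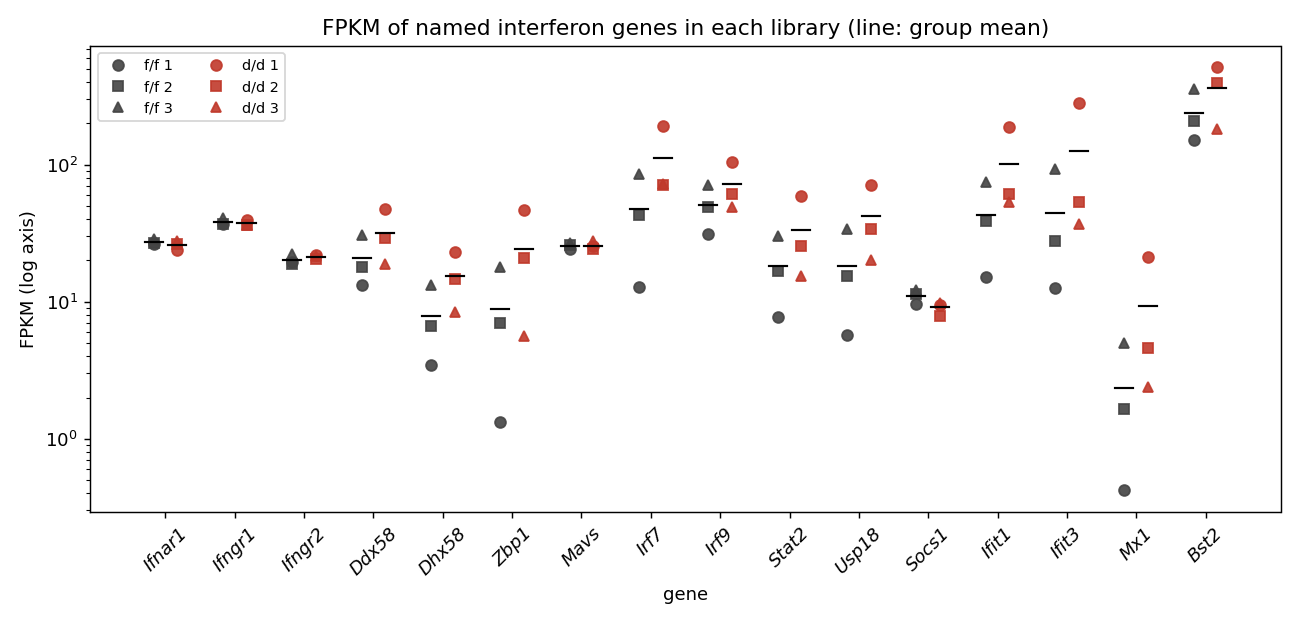
FPKM on a log axis of 16 interferon genes in each of 6 libraries, with Nat10 f/f in grey and Nat10 d/d in red, symbols for replicates and a line at each group mean. Values of Zbp1 run from 1.33 to 46.5 and of Mx1 from 0.420 to 21.1, whereas those of Mavs stay between 24.2 and 27.6.

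Transcription factors fell into an even and an uneven group. Irf7 (ENSMUSG00000025498), which drives the amplification of type I interferon, was 12.9, 43.1 and 86.0 FPKM in controls and 193, 71.1 and 72.7 in deleted uteri. Control and deleted means were 47.3 ± 36.7 and 112 ± 69.8 (SD, n = 3), with a log2 change of 1.42 (SE 0.67; limma adjusted p 0.922), and d/d replicates 2 and 3 lay below f/f replicate 3. Stat2 (ENSMUSG00000040033) was 7.78, 16.8 and 30.2 in controls and 58.7, 25.5 and 15.3 in deleted uteri (log2 change 0.80, SE 0.56; limma adjusted p 0.926). The change of Stat2 was 0.29 without d/d replicate 1, 0.33 without f/f replicate 1, 1.23 without d/d replicate 3 and 1.24 without f/f replicate 3. Its partner Irf9 (ENSMUSG00000002325), the most abundant of the 8 in controls, was 31.2, 49.5 and 71.1 in controls and 105, 61.6 and 49.0 in deleted uteri (log2 change 0.50, SE 0.35; limma adjusted p 0.926). Leaving out 1 library at a time gave 0.71 (without f/f replicate 1) to 2.03 (without f/f replicate 3) for Irf7, and 0.19 (without d/d replicate 1) to 0.78 (without f/f replicate 3) for Irf9. Irf7, Stat2 and Irf9 were all lowest in f/f replicate 1 and highest in d/d replicate 1.

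The other 5 transcription factors varied less. Irf1, the early target of interferon gamma signalling, ranged from 26.8 to 47.4 and was highest in d/d replicate 1. Irf2, a repressor that competes with IRF1 for its sites, ranged from 12.9 to 18.7. Irf3, which is activated by phosphorylation after nucleic acid sensing, ranged from 23.9 to 27.4. Irf5 (2.64 to 3.91) and Irf8 (9.64 to 12.6), both characteristic of myeloid cells, spread by 1.48 and 1.31 times. Both were highest in d/d replicate 1, as were 6 of the 8 transcription factors in all.

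Of the feedback regulators, Usp18 had both within-genotype orders and Socs1 did not. Usp18 (ENSMUSG00000030107), a protease that removes ISG15 and also dampens signalling at the type I receptor, was 5.72, 15.5 and 33.7 FPKM in controls and 71.4, 34.2 and 20.2 in deleted uteri. D/d replicate 2 lay just above f/f replicate 3, and d/d replicate 3 within the control range. The difference was 1.27 (log2, SE 0.63; limma adjusted p 0.922), and from 0.66 without f/f replicate 1 to 1.84 without f/f replicate 3. Socs1 (ENSMUSG00000038037), an inhibitor of JAK kinases, was 9.64, 11.4 and 12.1 in controls and 9.53, 7.91 and 9.84 in deleted uteri. The deleted minus control difference was -0.26 on the log2 scale (SE 0.13; adjusted p 0.922 in limma), and d/d replicate 3 lay just above f/f replicate 1. With 1 library left out the difference ran from -0.34 (without f/f replicate 1) to -0.17 (without d/d replicate 2).

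All 30 effectors were highest in d/d replicate 1, and 28 were lowest in f/f replicate 1. The exceptions were Gbp2, lowest in d/d replicate 3, and Isg20, lowest in f/f replicate 2. The median effector was -0.68, -0.07 and 0.81 in f/f replicates 1, 2 and 3 relative to the control mean, and 1.48, 0.64 and -0.03 in d/d replicates 1, 2 and 3 (log2 units). The median log2 change was 0.64, from 0.01 to 1.41, and the smallest adjusted p among the 30 was 0.922 in limma.

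The IFIT proteins bind foreign RNA and block its translation, and their 4 genes lie together on chromosome 19 at chr19:34550694-34650009 (mm10). Ifit1 (ENSMUSG00000034459) was 15.1, 38.9 and 74.3 FPKM in controls and 189, 61.5 and 53.2 in deleted uteri. The difference was 1.24 (log2, SE 0.64; limma adjusted p 0.922), and d/d replicates 2 and 3 lay within the control range. Ifit3 (ENSMUSG00000074896) was 12.7, 27.8 and 92.7 in controls and 284, 53.4 and 37.1 in deleted uteri, with d/d replicates 2 and 3 again within the control range (log2 change 1.33, SE 0.89; limma adjusted p 0.924). The change of Ifit3 was 0.45 without d/d replicate 1, 0.69 without f/f replicate 1 and 2.08 without f/f replicate 3, and that of Ifit1 ran from 0.65 without f/f replicate 1 to 1.77 without f/f replicate 3. Ifit2 ranged from 6.32 to 33.5 and Ifit3b from 5.22 to 89.2. The values of Ifit3 and Ifit3b are uncertain, because 51.24% of the 50-base windows in Ifit3 transcripts also occur in Ifit3b, so reads could have been assigned to either. The ratio of Ifit3 to Ifit3b was 2.43 to 2.68 in f/f and 2.73 to 3.18 in d/d.

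Mx1 (ENSMUSG00000000386), an antiviral GTPase, had the widest range of the 50. It was 0.420, 1.64 and 5.01 FPKM in controls and 21.1, 4.62 and 2.38 in deleted uteri, 50.1 times as high in the highest library as in the lowest. The difference was 1.41 (log2, SE 0.75; limma adjusted p 0.922) on a scale that understates changes of such low values. It was 0.63 without d/d replicate 1, 0.91 without f/f replicate 1, 1.95 without f/f replicate 3 and 1.98 without d/d replicate 3. Bst2 (ENSMUSG00000046718), which encodes tetherin, a protein that holds budding virus at the cell surface, was the most abundant effector. It was 152, 207 and 359 in controls and 515, 395 and 182 in deleted uteri (log2 change 0.57, SE 0.43; limma adjusted p 0.926). D/d replicate 3 lay below f/f replicate 2 for Bst2, and its change ran from 0.26 without d/d replicate 1 to 1.00 without d/d replicate 3.

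The OAS genes make the oligoadenylate that activates RNase L, and Oasl1 and Oasl2 are related genes. Oas2 (3.48 to 40.3), Oas3 (0.298 to 6.08) and Oasl1 (1.66 to 19.7) each spread by more than 10 times from f/f replicate 1 to d/d replicate 1. Oasl2 ran from 26.9 to 224 and Oas1a from 11.4 to 52.8 between the same libraries. Of the windows in Oas1a transcripts, 57.57% also occur in Oas1g, so the split between these genes is uncertain too. Eif2ak2, the kinase PKR, ranged from 13.1 to 49.2.

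Isg15, a ubiquitin-like modifier, ranged from 25.8 in f/f replicate 1 to 287 in d/d replicate 1, a ratio of 11.1. Herc6, the mouse ligase that attaches it, ranged from 2.86 to 15.5, and Trim25, a ubiquitin ligase that acts on RIG-I, from 25.9 to 48.2. Trim25 was the only effector whose highest library was under 2 times its lowest. Of the genes for guanylate-binding proteins, best known as targets of interferon gamma, Gbp2 was lowest in d/d replicate 3, and Gbp3 and Gbp7 in f/f replicate 1. Gbp2 and Gbp3 were 15.9 and 23.3 in d/d replicate 3, against 20.1 and 22.6 in f/f replicate 1, and Gbp7 was 15.1 and 11.7. The log2 changes of Gbp2, Gbp3 and Gbp7 were 0.01, 0.59 and 0.37, with standard errors of 0.48, 0.63 and 0.44.

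Genes of nucleotide and nucleic acid metabolism spread by 2.65 to 5.21 times. Rsad2, which encodes viperin and makes a chain-terminating nucleotide, ranged from 11.9 to 43.4. Its neighbour Cmpk2, a mitochondrial nucleotide kinase, ranged from 10.9 to 57.0. Samhd1, a dNTP hydrolase, ranged from 17.6 to 46.7, and Isg20, an exonuclease, from 6.77 to 20.5. The ADP-ribosylation genes Parp9 (16.0 to 58.1), Parp14 (13.5 to 48.4) and Dtx3l (10.9 to 29.6), whose products include a PARP9-DTX3L complex, were likewise highest in d/d replicate 1 and lowest in f/f replicate 1. Parp9 and Dtx3l overlap on opposite strands, and 7.71% of the windows of Parp9 occur in Dtx3l. Among the remaining effectors, Ifi44 ranged from 6.15 to 61.4, Rtp4 from 31.2 to 188, Xaf1 from 15.6 to 61.7, Ifi35 from 23.8 to 60.2 and Lgals3bp from 43.9 to 172.

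Taken by range over the 6 libraries, 12 of 50 genes stayed within 2 times from lowest to highest. These were the 4 receptors, Mavs, Irf1, Irf2, Irf3, Irf5, Irf8, Socs1 and Trim25. A further 27 spread by 2 to 10 times, and 11 by 10 times or more. The 11 were Zbp1, Irf7, Usp18, Isg15, Ifit1, Ifit3, Ifit3b, Oas2, Oas3, Oasl1 and Mx1. The median gene tested in the whole table spread by 1.48 times.

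Promoter sequences were examined because so many of these genes shared an order of libraries. RefSeq promoters (GRCm38.p6, from 250 bases before to 50 after the transcription start) were matched for 42 of the 51 symbols. The core of the ISRE was searched as GAAANNGAAA on both strands (TTTCNNTTTC on the other), and the GAS as TTCNNNGAA, which reads the same on both. An ISRE core was present in 17 of the 42 (40.5%), against 3.99% of all 27025 genes in the promoter table. By role it was found in 12 of 25 effectors, 2 of 4 sensors or adaptors, 2 of 8 transcription factors and 0 of 4 receptors. A GAS was present in 13 of the 42 (31.0%), against 9.55% of all genes in the table. Many members are known interferon targets, so these shares describe the list.

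In all, 6 promoters are printed from 200 bases before the start to the base before it, 5′ to 3′ along the gene, with ISRE cores in capitals. Isg15 (chr4:156200819-156201018, minus strand) has overlapping cores in a run. Ifit1 (chr19:34640689-34640888, plus strand) has a spaced pair. Ifit3 (chr19:34583329-34583528, plus strand) and Ifit3b (chr19:34607757-34607956, plus strand) carry the same pair, and their full promoter entries were identical at 99.6% of 260 aligned bases. Socs1 (chr16:10785537-10785736, minus strand) also has cores, although its values did not show both within-genotype orders. Irf7 (chr7:141266425-141266624, minus strand) shows no core in this window. Its values were highest in d/d replicate 1 and lowest in f/f replicate 1, with d/d replicates 2 and 3 nearly level.
Isg15: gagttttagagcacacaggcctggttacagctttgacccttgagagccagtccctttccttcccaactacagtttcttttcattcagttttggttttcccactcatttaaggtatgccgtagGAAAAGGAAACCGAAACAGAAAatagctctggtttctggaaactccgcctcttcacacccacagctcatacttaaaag
Ifit1: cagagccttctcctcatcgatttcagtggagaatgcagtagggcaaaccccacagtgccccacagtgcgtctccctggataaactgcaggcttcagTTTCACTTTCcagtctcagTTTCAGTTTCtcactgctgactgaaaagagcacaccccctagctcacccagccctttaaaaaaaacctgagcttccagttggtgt
Ifit3: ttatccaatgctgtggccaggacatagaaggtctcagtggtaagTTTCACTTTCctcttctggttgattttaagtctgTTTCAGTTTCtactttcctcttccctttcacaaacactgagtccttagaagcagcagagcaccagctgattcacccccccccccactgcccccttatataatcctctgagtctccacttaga
Ifit3b: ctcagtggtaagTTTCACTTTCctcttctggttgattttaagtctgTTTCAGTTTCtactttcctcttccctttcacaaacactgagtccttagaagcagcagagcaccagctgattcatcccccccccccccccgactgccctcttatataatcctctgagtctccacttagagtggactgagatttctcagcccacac
Socs1: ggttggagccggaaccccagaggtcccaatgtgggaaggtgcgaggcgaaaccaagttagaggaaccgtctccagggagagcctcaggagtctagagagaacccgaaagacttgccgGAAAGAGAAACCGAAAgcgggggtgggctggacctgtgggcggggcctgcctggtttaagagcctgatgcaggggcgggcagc
Irf7: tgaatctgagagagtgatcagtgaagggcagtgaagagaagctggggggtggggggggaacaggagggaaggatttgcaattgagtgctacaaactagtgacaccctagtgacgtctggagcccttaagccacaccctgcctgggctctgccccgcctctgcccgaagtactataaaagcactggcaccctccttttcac

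Other genes of the pathway were counted from a list of 84 symbols, of which 79 were in the tables and 64 passed the filter. None passed an adjusted p of 0.05 in limma. At an unadjusted p under 0.05, 2 of 64 were higher in deleted uteri (background 2.68%) and 0 lower. The 2 were Slfn2, a member of the schlafen family, and B2m, the light chain of class I MHC. Slfn2 was 7.49, 16.2 and 21.1 FPKM in controls and 46.3, 26.2 and 20.7 in deleted uteri (log2 change 1.04, SE 0.40; limma adjusted p 0.922), so d/d replicate 3 lay just below f/f replicate 3. B2m was 345, 570 and 706 FPKM in controls and 1494, 777 and 680 in deleted uteri (log2 change 0.83, SE 0.36; limma adjusted p 0.922), so d/d replicate 3 again lay below f/f replicate 3. The median log2 change over the 64 genes was 0.37, with 57 higher and 7 lower, and 36 had the same within-genotype orders as the interferon genes. The groups did not overlap for 3 of the 64, against 10.7% of all genes tested, a share below that background. The 3 were Jak1, Tyk2 and Ifitm2, all lower in deleted uteri. Ifitm2, of the interferon-induced transmembrane proteins, was 843 to 868 in controls and 818 to 838 in deleted uteri. Jak1 and Tyk2, the kinases bound to the type I receptor, had log2 changes of -0.15 (SE 0.10) and -0.25 (SE 0.12), with limma adjusted p of 0.926 and 0.922.

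Interferon transcripts themselves were at or near 0. Ifnb1, Ifna1, Ifna2, Ifna4, Ifnl2 and Ifnl3 were listed at 0 in all 6 libraries. Ifng, the interferon of T and NK cells, ranged from 0.124 to 0.380, and Ifne, an interferon of the female reproductive tract epithelium, from 0 to 0.779. Ifng was highest in f/f replicate 2, Ifne in d/d replicate 2 and Ifnk (0 to 0.364) in f/f replicate 3. These genes failed the filter on low values and read totals are unknown, so their order cannot be relied on.

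The genes outside the list whose profile was closest to the median interferon gene were named by Pearson correlation over the 6 libraries, as a description of likeness. The 10 closest were Gm4951, Trim30a, Iigp1, Trim21, Adar, Igtp, Nlrc5, 9930111J21Rik1, Irgm1 and Znfx1, with correlations from 0.993 to 0.999. Of these, 7 were on the list of other pathway genes. Gm4951 was 2.12, 4.8 and 12.8 FPKM in controls and 27.6, 9.81 and 4.78 in deleted uteri. Adar, the RNA adenosine deaminase, was 16.7, 24.0 and 34.3 in controls and 45.1, 29.7 and 23.6 in deleted uteri. Nlrc5, a transactivator of class I MHC genes, ranged from 0.785 to 6.

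Some markers of other cells also differed between these libraries. Summed red blood cell markers (5 of 5 genes present) were 5581, 2629 and 851 FPKM in f/f replicates 1, 2 and 3 and 709, 1723 and 1111 in d/d replicates 1, 2 and 3. They were highest in the library with the lowest interferon genes and lowest in the library with the highest. They made up 0.132% to 1.06% of all FPKM. The 5 NK cell markers summed to 3.02, 3.17 and 4.99 in controls and 8.90, 4.75 and 4.56 in deleted uteri, and Gzma, a granzyme gene singled out after its values were seen, was 0.390, 1.31 and 2.17 in controls and 4.8, 3.18 and 1.75 in deleted uteri. The NK cell sum had both within-genotype orders, as did Gzma but none of the other 4. Klrb1c and Prf1 were highest in d/d replicate 1, Ncr1 in d/d replicate 3 and Eomes in f/f replicate 3. Eomes was listed at 0 in f/f replicate 2. The 10 macrophage markers summed to 161, 218 and 245 in controls and 230, 172 and 213 in deleted uteri, so that the highest value was in f/f replicate 3. Singly, Fcgr1, C1qa, C1qb and Cx3cr1 were highest in d/d replicate 1, and Adgre1, Cd68, Mrc1 and C1qc in f/f replicate 3. Csf1r was highest in d/d replicate 3 and Lyz2 in f/f replicate 2. Only Fcgr1 had both within-genotype orders (1.08, 3.04 and 3.92 in controls, 4.99, 2.07 and 1.9 in deleted uteri). The 6 T cell markers summed to 5.40, 5.38 and 6.39 in controls and 9.08, 7.95 and 7.34 in deleted uteri, so that every deleted library lay above every control. Of the 6 genes, Cd3g alone showed this separation (1.40 to 2.11 in controls, 2.16 to 2.90 in deleted uteri). Groups did not overlap for 10.7% of all genes tested, and only 2 of the 6 passed the filter on low values. The 3 fat markers summed to 48.2, 0.979 and 2.66 in controls and 7.56, 5.64 and 1.97 in deleted uteri, and the 4 neutrophil markers to 7.87, 0.769 and 2.49 and to 4.75, 0.395 and 4.17. Both were highest in f/f replicate 1, the library with the lowest interferon genes and without which their median change was 0.28. The part of any of these cells in the spread of the interferon genes was not tested.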

How the data were processed

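Poly(A) RNA from whole uterus was sequenced in 6 libraries, after TRIzol extraction and TruSeq preparation, per the labels' protocols. The submitters' processing notes list HISAT2 2.2.1, Cufflinks 2.2.1 and mm10. The deposited values were taken as FPKM calculated by the authors, a unit inferred from Cufflinks and from values that are not whole numbers. The annotation, strand setting and gene filter are not given in the sources used here. Read totals are unknown, so no counting intervals are given. The values of overlapping genes on opposite strands are therefore uncertain.

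Values were analysed as log2(FPKM + 1), and 12640 genes passed a filter (FPKM of 1 or more in 3 or more libraries). Groups came from the sample titles. The test was limma 3.58.1, run in R 4.3.3 (lmFit, eBayes with a mean-variance trend, group as the only term), with two-sided p-values adjusted by Benjamini-Hochberg over all genes tested and a threshold of 0.05. A log2 change is on this scale and understates changes of low genes. The fit was tested on simulated data. Python 3.11.15 and Biopython 1.88 were used for tables and sequences, and transcript windows and loci came from GENCODE M21 (mm10).

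The members and lists were chosen with earlier results of these data known. Values in all 6 libraries are given, within each role, for the 3 members of the list with the largest absolute change and the member with the highest control mean, and for any member with an unadjusted p under 0.05 or groups that do not overlap. Isg15, Gm4951 and other genes given by value outside this rule were chosen after their values were seen. The alternatives were 3 scalings, 2 filters, no trend, a robust step, array quality weights, a pseudocount of 0.1, a replicate block and, in turn, the omission of each library.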

Additional observations from a re-analysis of the deposited data

How the results depend on the processing

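No interferon gene was called in limma under any of the 16 alternatives. Array quality weights moved the most: 316 genes were called over the whole table and the median log2 change of the interferon genes was 1.19. With these weights 40 of 50 interferon genes had an unadjusted p under 0.05, against 29.5% of all genes tested, and the smallest adjusted p was 0.0532. The weights were 3.74 for d/d replicate 1 and 0.224 and 0.451 for d/d replicates 2 and 3. Leaving out 1 library gave 0 to 12 called genes in all (12 without d/d replicate 2, 0 otherwise) and a median change from 0.19 to 0.88. The smallest adjusted p of an interferon gene was then 0.304 to 1. An unadjusted p under 0.05 was found for 16 interferon genes without f/f replicate 3 (against 2.79% of all genes tested), 12 without d/d replicate 3 (against 11.1%) and 2 without d/d replicate 2 (against 13.7%). The change of Ifngr1 turned positive with array quality weights (0.05) and without f/f replicate 3 (0.02, in a range of -0.07 to 0.02 over the libraries left out). The remaining settings gave a median of 0.51 to 0.58. The counts of library order, whose alternatives were chosen after seeing the data, were 34 of 50 under each scaling and 32 of 48 with the filter applied to every library. Deviations of same-numbered libraries correlated at -0.341, -0.029 and 0.1, so the numbers were not taken as pairs. With the replicate number as a block, 0 genes were called and the median change was 0.55. Depth is unknown beyond its ratio, so values near 0, such as those of Mx1 and Oas3 in f/f replicate 1, cannot be given a counting error.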
